A study of Mus musculus with 10 samples.

Results

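In all, 10 genes of the transforming growth factor β (TGF-β) system were examined in mouse lung: the 3 ligand genes Tgfb1, Tgfb2 and Tgfb3, the 3 receptor genes Tgfbr1, Tgfbr2 and Tgfbr3, and the 4 latent TGF-β binding protein genes Ltbp1, Ltbp2, Ltbp3 and Ltbp4. They were taken by name from an expression table of 54532 genes, in which each of the 10 names occurred once. The table holds whole-lung RNA-seq of 10 mice at postnatal day 30 (P30). In 5 of them, the IPF group (increased pulmonary flow), wild-type pups had been given an aortocaval fistula at P7, a puncture between the abdominal aorta and the inferior vena cava that sends more blood through the lungs. The other 5, the sham group, were wild-type pups whose vessels were exposed at P7 without the puncture. Both groups were C57BL/6J mice of the same age, and each library was made from lung tissue, so a lower value in this bulk RNA may come from fewer cells of a type or from less RNA per cell, which cannot be told apart here. The labels do not say that the mice came from separate litters.

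TGF-β ligands are made as precursors whose N-terminal part, the latency-associated peptide, stays bound to the mature growth factor and keeps it inactive. Latent binding proteins tie this complex to fibrillin and fibronectin in the matrix, and integrins or proteases release the ligand, which then binds the type II receptor (Tgfbr2), recruits the type I receptor (Tgfbr1) and leads to phosphorylation of SMAD2 and SMAD3. Betaglycan, the product of Tgfbr3, is a co-receptor that presents TGF-β2 in particular, and its shed form can sequester ligand. In the lung the system is known for its roles in alveolar and vessel wall development and in the deposition of elastic and collagen fibres.

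The ligands differ in how they can be released, and their coding sequences show it. Integrins of the αv family recognise an Arg-Gly-Asp (RGD) site in the latency-associated peptide. In the GENCODE vM39 transcripts (GRCm39), the RGD codons, in capitals, occurred 1 time in Tgfb1-201 and 1 time in Tgfb3-201, and 0 times in Tgfb2-201. Below, 45 bases are shown 5′ to 3′ on the coding strand, at coding bases 712 to 756 of Tgfb1 and 763 to 807 of Tgfb3, with the stretch of Tgfb2 (coding bases 763 to 807) that aligned with the Tgfb3 site.
Tgfb1: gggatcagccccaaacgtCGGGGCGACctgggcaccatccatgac
Tgfb3: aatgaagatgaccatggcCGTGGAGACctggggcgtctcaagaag
Tgfb2: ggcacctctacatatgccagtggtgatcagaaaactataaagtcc
Over the mature growth factor, the translated sequences were 72.3% identical between Tgfb1 and Tgfb2, 77.7% between Tgfb1 and Tgfb3, and 78.6% between Tgfb2 and Tgfb3. The remaining, precursor part was less alike, at 40.9%, 39.1% and 49.0% in the same order. No 2 of the 10 genes shared a run of 75 or more transcript bases with each other. The search could also pick up runs from 50 bases on. It found runs shared with genes outside the set for Tgfbr2 (102 genes), Ltbp1 (46) and the other 8 members (1 to 7 each). How reads from such runs were assigned is not given in the sources used here.

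Values are FPKM, fragment numbers divided by the length of the gene and the size of the library. Each gene has 1 listed length for all lungs. The order of different genes therefore depends on these lengths, while a comparison of 1 gene between lungs does not. The depth was 15483046 to 19026843 reads on genes per sample. The sex-linked genes divided exactly with the groups: Xist was 26.8 to 43.2 FPKM in every IPF lung and 0.0301 to 0.0767 in every sham lung, and Ddx3y, Eif2s3y, Kdm5d and Uty were listed at 0 in every IPF lung and were 1.33 FPKM or more in every sham lung. Sex and operation therefore cannot be told apart in any comparison given here. Of 12 circadian clock genes, 3 were called higher and 8 lower in IPF (limma adjusted p under 0.05); Arntl was 3.31 to 6.85 FPKM in IPF and 0.311 to 0.452 in sham, so clock gene levels also moved with the groups, and their part in the results was not tested. IPF replicate 5 stood nearer to the sham lungs than the other IPF lungs for several clock genes (Nr1d2 was 17.3 FPKM there, the highest of its group, against 43.1 to 47.1 in sham), and its values are pointed out below. IPF replicate 3 stood apart for several smooth muscle, airway and adventitial fibroblast genes, with values given with the cell type markers.

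Among the 10 genes, Tgfb3 was 1.76-fold and Tgfb2 1.26-fold higher in IPF than in sham lungs, while none was called lower. Calls were made with limma on log2(FPKM + 0.1) where the p-value, adjusted by Benjamini and Hochberg across the 20448 genes tested, was below 0.05. The 2 called genes were both ligands, and all 10 genes were tested. This count of 2 of 10 stands beside 5.85% called over all genes tested, 3.71% as higher and 2.14% as lower in IPF. No member passed an additional limit of 1 on the absolute log2 fold change, which 1.14% of all tested genes passed with the adjusted p. The median log2 difference of the 10 genes was 0.00, equal to 2 decimals to that of all genes tested, with 5 members above 0 and 5 below.

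**Figure D1:**
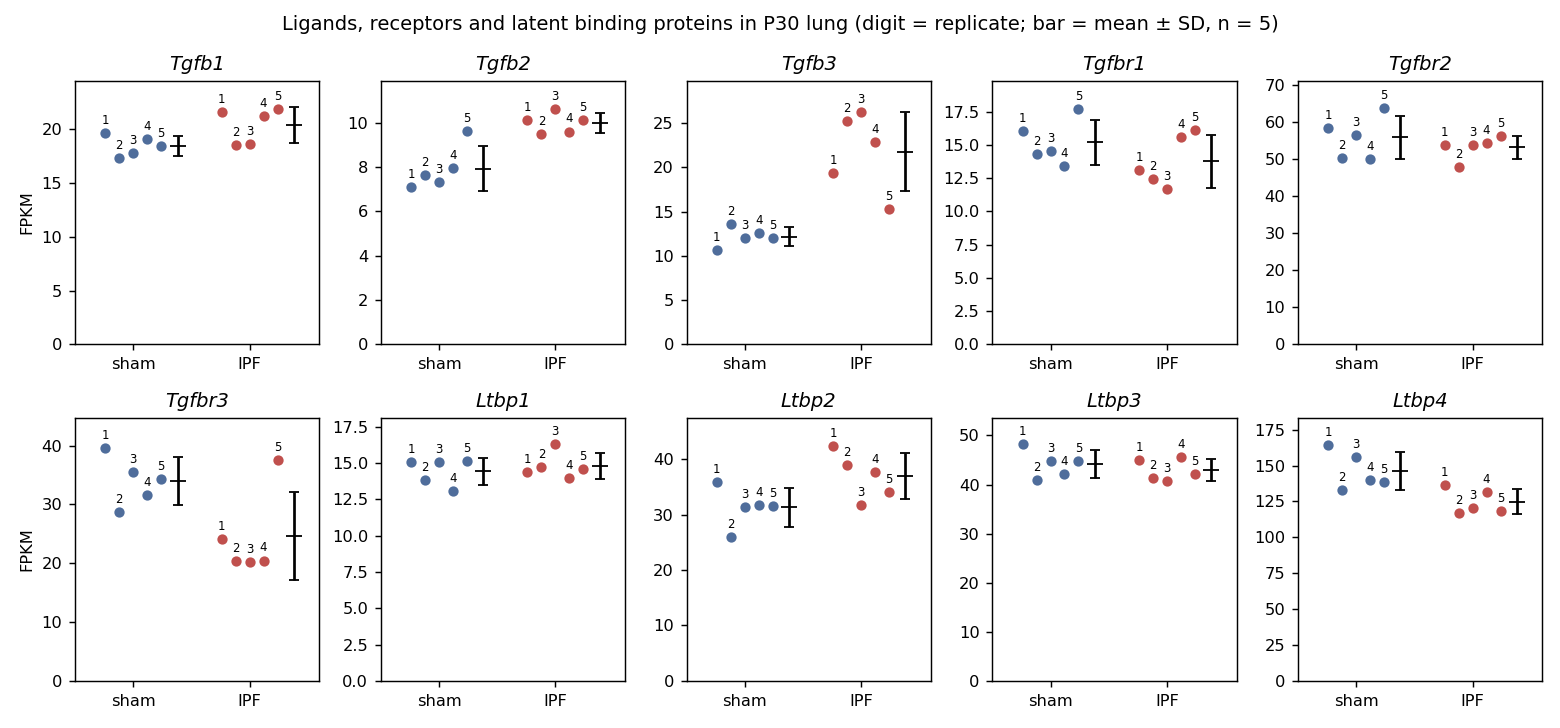
FPKM of each of the 10 genes (vertical axis, from 0) in 5 sham (blue) and 5 IPF (red) lungs; each point is a lung with its replicate number, and the bar is the mean ± SD. All 5 IPF values of Tgfb3 lie above the sham values, and IPF replicate 5 lies among the sham lungs for Tgfbr3.

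Tgfb3, the ligand known for its part in palate closure and in lung morphogenesis, was 19.3, 25.3, 26.2, 22.8 and 15.3 FPKM in IPF replicates 1 to 5 and 10.7, 13.6, 12.0, 12.6 and 12.0 FPKM in sham replicates 1 to 5. The groups did not overlap, and the lowest IPF value, that of replicate 5, was 15.3 against a highest sham value of 13.6. Its mean was 21.8 ± 4.49 FPKM in IPF and 12.2 ± 1.07 in sham (SD, n = 5 each). The log2 fold change was 0.81 (SE 0.13, 95% interval 0.52 to 1.11, limma adjusted p = 0.00597). The exact two-sided permutation test gave p = 0.00794, the smallest that the assignments of 5 of 10 samples allow. Tgfb3 was the only 1 of the 10 genes without overlap between the groups, against 7.29% of all genes tested. Without IPF replicate 5 the log2 fold change was 0.93 (adjusted p = 0.000388).

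The gene lies at chromosome 12, 86056745 to 86079041 on the minus strand (GRCm38), and overlaps Ttll5 on the other strand. Ttll5 had 247 to 396 reads per sample, against 597 to 1677 for Tgfb3, and showed a log2 difference of 0.01 (adjusted p = 0.984). The sources used here do not state that reads were counted by strand.

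Tgfb2, known for its role in the heart and the epithelia of the embryo, was 10.1, 9.48, 10.6, 9.60 and 10.1 FPKM in IPF replicates 1 to 5 and 7.08, 7.62, 7.33, 7.97 and 9.61 FPKM in sham replicates 1 to 5. The groups overlapped through sham replicate 5, which exceeded 2 IPF lungs, and the other 4 sham lungs were below every IPF lung. The log2 fold change was 0.34 (SE 0.08, 95% interval 0.16 to 0.52, limma adjusted p = 0.0345; exact two-sided permutation p = 0.0238). This call was narrow: it held in 9 of 21 alternatives and in 2 of the 10 fits that left out 1 lung (IPF replicate 5 or sham replicate 5), with adjusted p of 0.00646 to 0.0867 and a positive log2 fold change in all 21. With the replicate number as a block its adjusted p was 0.0618.

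Tgfb1, the ligand most often linked to fibrosis, was 21.6, 18.6, 18.7, 21.3 and 21.9 FPKM in IPF replicates 1 to 5 and 19.6, 17.3, 17.8, 19.1 and 18.4 in sham replicates 1 to 5. Here 3 IPF lungs lay above every sham lung and the other 2 within the sham range. The log2 difference was 0.14 (95% interval -0.0022 to 0.28), which did not pass the test (limma adjusted p = 0.263; exact two-sided permutation p = 0.0714), and it passed in 0 of 21 alternatives.

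The balance of the ligands is shown by their shares of the summed ligand FPKM in each lung. Tgfb1 was the most abundant ligand transcript in all sham lungs, at 52.5%, 44.9%, 47.9%, 48.2% and 46.1% in replicates 1 to 5. In the IPF lungs its share was 42.3%, 34.8%, 33.7%, 39.6% and 46.3%. The share of Tgfb3 was 28.6%, 35.4%, 32.4%, 31.7% and 29.9% in sham replicates 1 to 5 and 37.9%, 47.4%, 47.2%, 42.5% and 32.4% in IPF replicates 1 to 5. By FPKM, Tgfb3 thus exceeded Tgfb1 in IPF replicates 2, 3 and 4. Tgfb1 exceeded Tgfb3 in IPF replicates 1 and 5 and in every sham lung. This order depends on the gene lengths used, 5042 bases for Tgfb1 and 3383 for Tgfb3. As shares of reads, Tgfb1 exceeded Tgfb3 in every lung. The values were 40.0% against 36.5% in IPF replicate 2, 38.55% against 36.3% in replicate 3 and 44.7% against 32.2% in replicate 4. IPF replicate 5 had shares within the sham range for all 3 ligands. The share of Tgfb2 was 19.2% ± 1.48 in IPF and 20.5% ± 2.01 in sham (SD, n = 5 each). Their difference of -1.32 percentage points was -0.44 without sham replicate 5 and -0.72 as shares of reads. These shares are a description and carry no test.

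**Figure D2:**
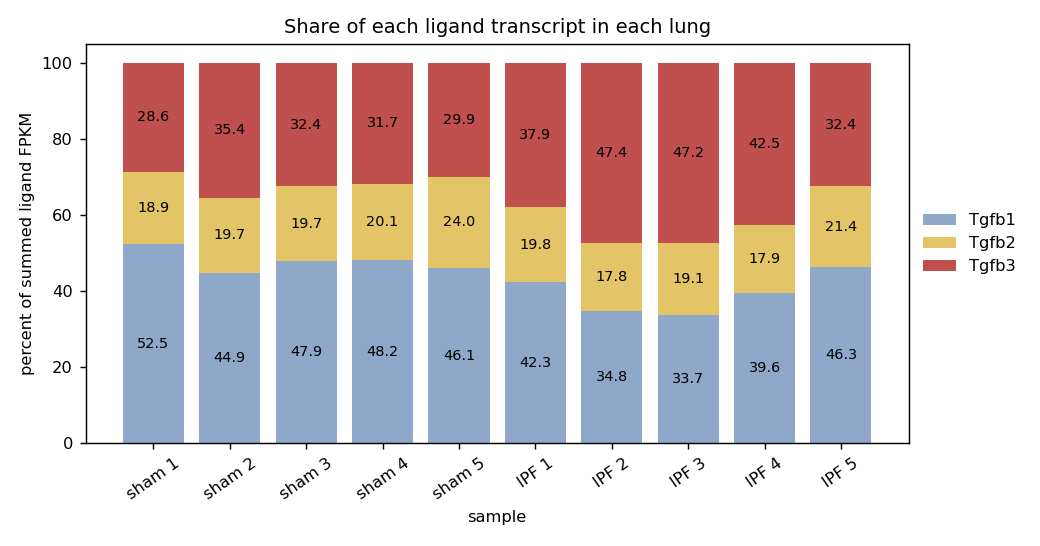
Percent of the summed ligand FPKM (vertical axis) taken by Tgfb1, Tgfb2 and Tgfb3 in each of the 10 lungs, each bar adding to 100%. The Tgfb3 part is 28.6% to 35.4% in the sham lungs and 37.9% to 47.4% in IPF replicates 1 to 4, with 32.4% in IPF replicate 5.

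The summed ligand FPKM was 51.1, 53.3, 55.5, 53.7 and 47.3 in IPF replicates 1 to 5 and 37.4, 38.6, 37.1, 39.7 and 40.0 in sham replicates 1 to 5, without overlap. Of the difference between the group means, 13.6 FPKM, Tgfb3 made up 9.61 FPKM (70.6%), Tgfb2 2.06 FPKM (15.1%) and Tgfb1 1.94 FPKM (14.2%).

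None of the 3 receptor genes was called, and all 3 differences were below 0. Tgfbr3, betaglycan, was 24.2, 20.4, 20.2, 20.5 and 37.6 FPKM in IPF replicates 1 to 5 and 39.5, 28.7, 35.5, 31.7 and 34.3 in sham replicates 1 to 5. IPF replicates 1 to 4 were below every sham lung, and IPF replicate 5 was above all sham lungs but replicate 1. The log2 difference was -0.50 (SE 0.16, 95% interval -0.86 to -0.14, limma adjusted p = 0.107; exact two-sided permutation p = 0.0476). This result turned on 1 lung: without IPF replicate 5 the log2 difference was -0.66 (adjusted p = 0.0022), without both IPF replicate 5 and sham replicate 1 it was -0.61 (adjusted p = 0.00299), and with weights for each library it was -0.51 (adjusted p = 0.0371). The same lung, IPF replicate 5, held the lowest Tgfb3 value and the highest Tgfbr3 value of its group. The ratio of Tgfbr3 to Tgfb3 FPKM was 1.25, 0.807, 0.770, 0.896 and 2.45 in IPF replicates 1 to 5 and 3.69, 2.10, 2.95, 2.52 and 2.86 in sham replicates 1 to 5.

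Tgfbr2, the type II receptor that binds the ligand, was the most abundant receptor transcript, at 53.2 ± 3.13 FPKM in IPF and 55.9 ± 5.78 in sham (SD, n = 5 each). Its log2 difference was -0.07 (95% interval -0.23 to 0.10, limma adjusted p = 0.684). Tgfbr1, the type I kinase receptor, was 13.8 ± 2.00 FPKM in IPF and 15.2 ± 1.69 in sham, with a log2 difference of -0.14 (95% interval -0.38 to 0.09, adjusted p = 0.498). Both intervals include 0. With 1 lung left out, the difference ran from -0.10 (without sham replicate 4 or 2) to -0.02 (without sham replicate 5; -0.03 without IPF replicate 2) for Tgfbr2, and from -0.20 (without IPF replicate 5) to -0.09 (without IPF replicate 3 or sham replicate 5) for Tgfbr1. Both genes overlapped between the groups, and Tgfbr1 ranged from 11.7 to 16.2 FPKM among the IPF lungs. The ratio of Tgfbr2 to Tgfbr1 was 3.90 ± 0.477 in IPF and 3.68 ± 0.142 in sham.

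**Figure D3:**
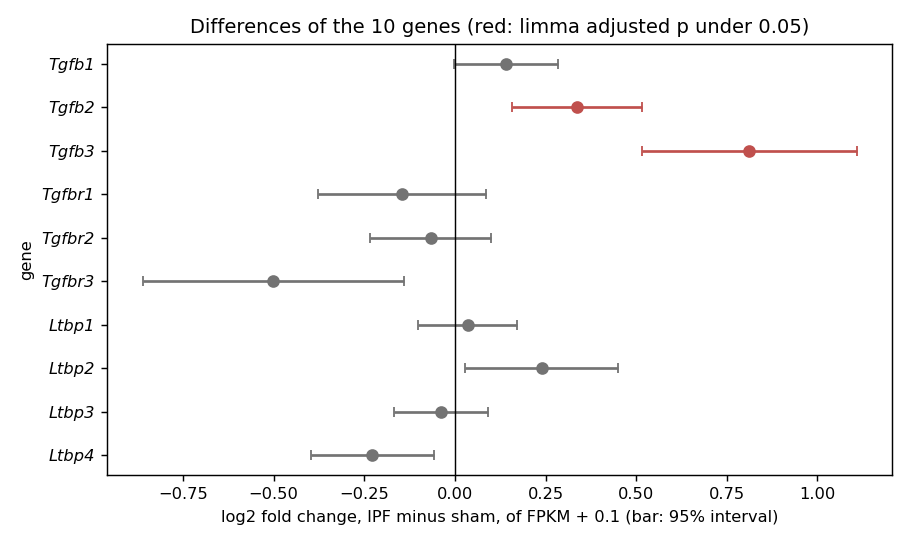
Log2 fold change (horizontal axis, IPF minus sham on log2(FPKM + 0.1)) of the 10 genes, with 95% intervals from limma and n = 5 per group. Tgfb2 and Tgfb3 (red) passed an adjusted p of 0.05, and the intervals of Tgfbr3, Ltbp2 and Ltbp4 exclude 0 without passing it.

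None of the 4 latent binding protein genes was called either. Ltbp4, which is needed for elastic fibre assembly in the lung and binds latent TGF-β1, was the most abundant of the 10 genes. It was 136, 117, 120.5, 132 and 118 FPKM in IPF replicates 1 to 5 and 164, 133, 156, 139.8 and 138 in sham replicates 1 to 5. IPF replicates 2, 3, 4 and 5 lay below every sham lung. Its log2 difference was -0.23 (SE 0.08, 95% interval -0.40 to -0.06, limma adjusted p = 0.12; exact two-sided permutation p = 0.0159), and it passed in 0 of 21 alternatives.

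Ltbp2, which does not bind latent TGF-β and is known as an elastic microfibril protein, was 42.4, 39.0, 31.7, 37.7 and 34.1 FPKM in IPF replicates 1 to 5 and 35.9, 26.0, 31.3, 31.8 and 31.5 in sham replicates 1 to 5. The 2 groups overlapped, with 3 IPF lungs above all sham lungs. The log2 difference was 0.24 (95% interval 0.03 to 0.45, limma adjusted p = 0.191; exact two-sided permutation p = 0.0556). As shares of the summed FPKM of the 4 latent binding protein genes, Ltbp4 was 55.2% to 57.6% in IPF and 60.2% to 63.2% in sham, and Ltbp2 was 15.2% to 18.4% in IPF and 12.2% to 14.0% in sham. Both shares separated the groups, IPF replicate 5 included, but they are parts of 1 sum and so not separate observations. This is a description with no test.

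Ltbp1 and Ltbp3, both of which bind the latent complex, differed least. Ltbp1 was 14.8 ± 0.893 FPKM in IPF and 14.4 ± 0.928 in sham, a log2 difference of 0.04 (95% interval -0.10 to 0.17, limma adjusted p = 0.811). Ltbp3 was 43.0 ± 2.17 FPKM in IPF and 44.2 ± 2.89 in sham, a log2 difference of -0.04 (95% interval -0.17 to 0.09, adjusted p = 0.778).

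Ordered by mean FPKM over the 10 lungs, the levels were Ltbp4 at 135.5, Tgfbr2 at 54.5, Ltbp3 at 43.6, Ltbp2 at 34.1, Tgfbr3 at 29.2, Tgfb1 at 19.4, Tgfb3 at 17.0, Ltbp1 at 14.6, Tgfbr1 at 14.5 and Tgfb2 at 8.95. The first 4 held their order in 10 of 10 lungs. In FPKM, some neighbours changed places with the group, an order that also rests on the gene lengths. Tgfb3 was above Ltbp1 in 5 of 5 IPF lungs and 0 of 5 sham lungs. Ltbp2 was above Tgfbr3 in 4 of 5 IPF and 1 of 5 sham lungs, and Tgfb1 was above Tgfb3 in 2 of 5 IPF and 5 of 5 sham lungs, so that the IPF means stood at 21.8 FPKM for Tgfb3 and 20.4 for Tgfb1. Ltbp1 was above Tgfbr1 in 3 of 5 IPF and 1 of 5 sham lungs.

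Among 69 other genes of the pathway in 5 lists, 68 had enough expression to test, and 6 were called higher and 2 lower (limma adjusted p under 0.05). That is 11.8% of those tested, beside 5.85% of all genes. The called count of 8 was 3 without IPF replicate 4 and 11 without IPF replicate 5. Over all genes, 775 of 20502 and 1620 of 20554 were called in those fits. These lists were written from general knowledge with earlier results of these data known. Of 14 genes that release the latent complex or, as Nrros and Lrrc32 do, tether it to the cell surface, 2 rose and 0 fell, with a median log2 difference of 0.08. Mmp14, a membrane-bound matrix metalloproteinase, was 19.5 to 26.9 FPKM in IPF and 17.7 to 19.4 in sham, without overlap (log2 fold change 0.38, SE 0.08, limma adjusted p = 0.0202). Nrros, which tethers latent TGF-β on macrophages and microglia and does not itself release it, was 7.24 to 10.1 FPKM in IPF and 4.76 to 6.84 in sham (log2 fold change 0.51, SE 0.11, adjusted p = 0.0223). The integrin subunits, Furin, Thbs1, Bmp1, Mmp2, Mmp9 and Lrrc32 did not pass. Among them Mmp9 had the largest difference of this list. It was 1.88 to 6.16 FPKM in IPF and 0.899 to 1.63 in sham, without overlap (log2 difference 0.98, SE 0.31, limma adjusted p = 0.1). The highest Mmp9 value, 6.16 FPKM, was that of IPF replicate 5. For Itgb6, whose αvβ6 integrin binds the RGD sites shown above, IPF replicates 1 to 4 were 9.01 to 10.8 FPKM, IPF replicate 5 was 5.94 and the sham lungs were 5.37 to 7.98 (log2 difference 0.48, adjusted p = 0.129).

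Of the 7 matrix genes that hold the latent complex or the ligand (Fbn1, Fbn2, Fn1, Emilin1, Dcn, Bgn and Fmod), 0 passed and the median log2 difference was 0.16. Of 12 other receptors of the superfamily, which include endoglin, Acvrl1 and Bmpr2, 11 were tested, 0 passed and the median was 0.02. Of 17 SMAD genes and regulators, 1 rose and 0 fell, with a median of -0.02. Smad3, the receptor-regulated SMAD named above, was 10.5 to 13.1 FPKM in IPF and 7.96 to 10.4 in sham, without overlap (log2 fold change 0.34, SE 0.08, limma adjusted p = 0.0343). Smad2 and Smad4 gave log2 differences of 0.04 (adjusted p = 0.822) and -0.02 (adjusted p = 0.891). Smad7, the inhibitory SMAD induced by the pathway, gave 0.00 (95% interval -0.30 to 0.30, adjusted p = 0.9998).

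**Figure D4:**
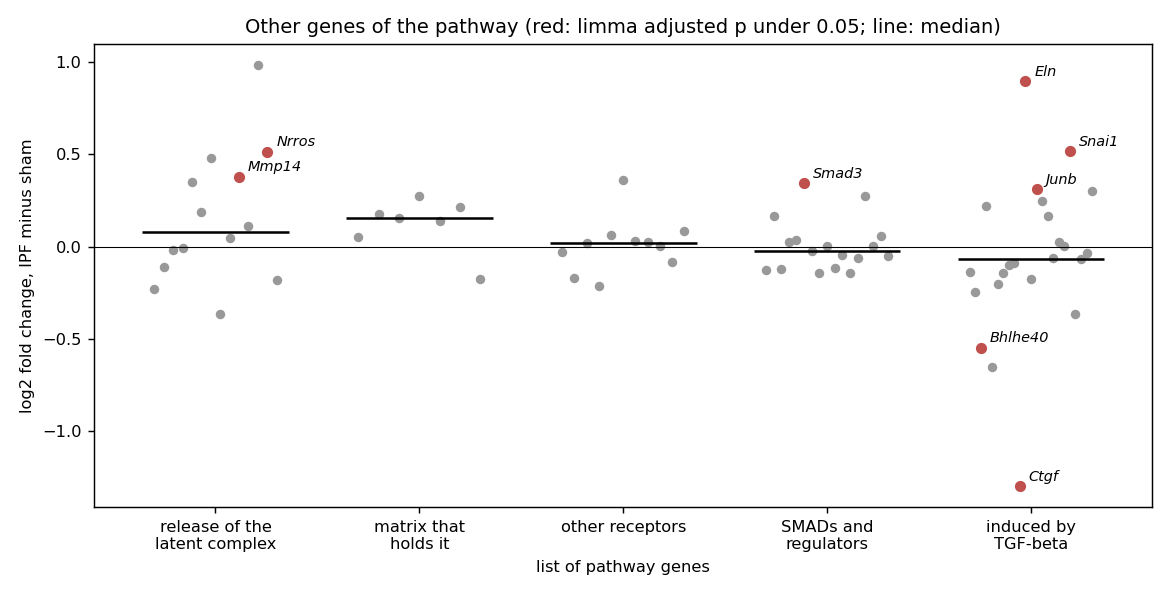
Log2 fold change (vertical axis, IPF minus sham) of each tested gene in 5 lists of pathway genes; red points passed a limma adjusted p of 0.05 and lines are list medians. The called genes of the release and SMAD lists are all above 0, and those of the list of induced genes lie on both sides of it.

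Of 23 genes that TGF-β is known to induce, 3 rose and 2 fell, with a median log2 difference of -0.07. Ctgf, connective tissue growth factor, was 54.2, 29.5, 49.6, 41.3 and 102 FPKM in IPF replicates 1 to 5 and 124, 100.3, 133, 153 and 119 in sham replicates 1 to 5. IPF replicate 5 alone reached the sham range (log2 fold change -1.30, SE 0.27, limma adjusted p = 0.0159; -1.55 without it, adjusted p = 0.000617). Bhlhe40, a transcriptional repressor that also acts on clock genes, was 8.77 to 13.1 FPKM in IPF and 14.3 to 16.1 in sham (log2 fold change -0.55, SE 0.10, adjusted p = 0.00825).

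Eln, which encodes the elastin precursor tropoelastin, was 206, 257, 229, 195 and 97.7 FPKM in IPF replicates 1 to 5 and 116, 109, 80.0, 97.5 and 106 in sham replicates 1 to 5. IPF replicates 1 to 4 were above every sham lung and replicate 5 lay inside the sham range (log2 fold change 0.89, SE 0.23, limma adjusted p = 0.0408; 1.13 without replicate 5, adjusted p = 0.000385). Leaving out any 1 of the other 9 lungs ended this call (adjusted p of 0.0573 to 0.0997). Snai1, a transcription factor of epithelial-to-mesenchymal transition, was 15.2 to 20.1 FPKM in IPF and 10.4 to 13.9 in sham (log2 fold change 0.51, SE 0.10, adjusted p = 0.015). Junb, an AP-1 subunit, was 17.5 to 21.9 FPKM in IPF and 13.7 to 17.5 in sham, with a log2 fold change of 0.31 (SE 0.08, adjusted p = 0.0479) that passed in 8 of 21 alternatives. Eln also passed in 8 of 21 alternatives, Smad3 in 10, Mmp14 in 16 and Nrros in 19, whereas Ctgf, Bhlhe40 and Snai1 passed in all 21. The collagen genes Col1a1, Col1a2, Col3a1 and Col4a1, Acta2, Postn and Tgfbi did not pass, with log2 differences of -0.20 to -0.03. The other uncalled genes of the list ran from -0.65 for Cnn1 and -0.36 for Snai2 to 0.25 for Lox and 0.30 for Timp1.

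**Figure D5:**
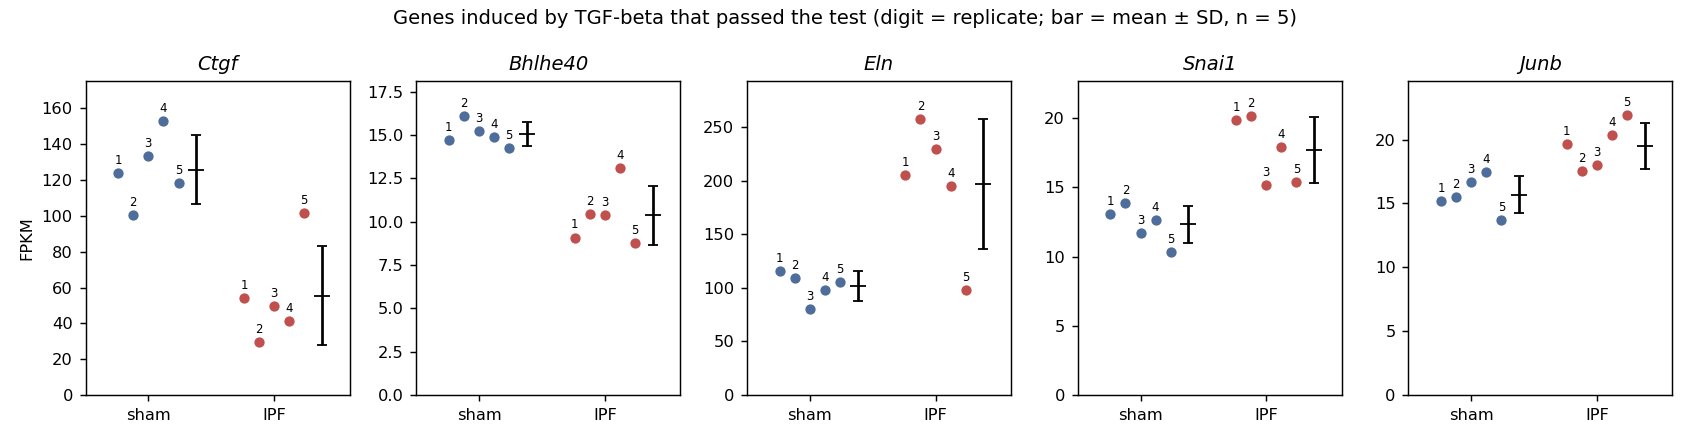
FPKM (vertical axis, from 0) of the 5 called genes of the induced list in 5 sham (blue) and 5 IPF (red) lungs; points carry the replicate number and the bar is the mean ± SD. IPF replicate 5 lies beside the sham lungs for Ctgf and Eln but not for Bhlhe40, Snai1 or Junb.

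The genes whose variation within the groups was most like that of each ligand were found from the deviations from the group means over the 10 lungs, among 13445 genes with a mean of at least 1 FPKM. For Tgfb3 these were Sc5d (r = 0.984), Neurl3 (0.974), Olfml3 (0.968), Pdia6 (0.967) and Aldh18a1 (0.965). Leaving out IPF replicate 5, which lies far from its group, these r values were 0.906 to 0.968. For Tgfb2 they were Fars2 (0.932), Cxadr (0.905), Snx10 (0.887), Fpgt (0.875) and Mpv17l (0.872). For Tgfb1 they were Bag6 (0.973), Osbp (0.962), Usp31 (0.961), Mark2 (0.957) and Lsm11 (0.955). These are descriptions of 10 lungs that differed in library depth and in cell type markers, and the genes were picked as the highest of many.

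Of 19 lists of cell type markers, with 92 genes tested, 9 genes were called higher in IPF and 1 lower. Over all genes tested, 3.71% were called higher and 2.14% lower. Of the lists, 14 held no called gene, among them the cartilage list, of which 0 of 4 genes had enough expression to test. The 5 B cell markers summed to 31.7 to 47.8 FPKM in IPF and 17.1 to 28.0 in sham, and all 5 were called higher. The 6 endothelial markers summed to 1021 to 1143 FPKM in IPF and 896 to 952 in sham, but this separation rested on Cldn5, the only 1 of the 6 that was called (log2 fold change 0.56, limma adjusted p = 0.0107). The other 5 summed to 588 to 695 FPKM in IPF and 575 to 658 in sham and overlapped.

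Of the 6 alveolar fibroblast markers, Wnt2 (log2 fold change 0.65, limma adjusted p = 0.00597) and Pdgfra (0.35, adjusted p = 0.0212) were called higher. The other 4 did not pass, with log2 differences of -0.24 for Tcf21, -0.01 for Npnt, 0.07 for Limch1 and 0.23 for Inmt, and the summed ranges were 1503 to 1865 FPKM in IPF and 1166 to 1687 in sham. Of the 5 pericyte markers, Cspg4 was called lower (log2 fold change -0.43, adjusted p = 0.0173) and the other 4 gave differences above 0. Of the 6 T cell markers, Cd4 was called higher (log2 fold change 0.48, adjusted p = 0.044), all 6 differences were above 0, and the sums were 13.1 to 17.5 FPKM in IPF and 7.95 to 13.4 in sham.

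The 6 neutrophil markers summed to 300.4 FPKM in IPF replicate 5, to 52.6 to 74.0 in the other 4 IPF lungs and to 15.2 to 72.4 in sham. None was called, all 6 differences were above 0 with a median of 1.00 on the log2 scale, and Csf3r did not overlap between the groups (log2 difference 0.83, limma adjusted p = 0.133). IPF replicate 3 stood apart for several smooth muscle, airway and adventitial fibroblast genes. The 6 smooth muscle markers summed to 224 FPKM in this lung, to 115 to 142 in the other IPF lungs and to 135 to 172 in sham, with 0 called. The 5 secretory airway markers summed to 27463 FPKM there and to 3713 to 13253 in the other IPF lungs and 11530 to 22996 in sham. Acta2 (140 FPKM in this lung) and Scgb1a1 (25938 FPKM) made up most of these sums. Myh11, Tagln, Scgb3a1 and Bpifa1 were not highest in it. The 6 adventitial fibroblast markers summed to 235 FPKM in this lung, the highest of all lungs, and to 160 to 202.5 in sham. Dpt and Mfap5 were not highest in it. The same lung held the highest Tgfb3 and Tgfb2 values, and without it the log2 fold changes were 0.74 for Tgfb3 (adjusted p = 0.0127) and 0.31 for Tgfb2 (adjusted p = 0.0689). The part of these markers in the differences of Tgfb3, Tgfb2 and the other genes was not tested.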

How the data were processed

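Per the sources of the study, RNA of whole lung was sequenced as paired reads, which the authors trimmed with Fastp, aligned with HISAT2 and quantified with StringTie; they deposited FPKM values, 1 per gene and sample. The methods name GRCm39 and the KAPA kit, and the sample records name NEBNext Ultra, GRCm38, mm10, hg38 and Bowtie 0.12.2. The deposited table uses GRCm38 positions, since its chromosome 1 genes reach 195323493. FPKM times gene length gave whole reads (tolerance 0.1 read) for 100% of values, at 15483046 to 19026843 reads per sample, and the member with fewest reads had 597.

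Genes averaging 0.1 FPKM or more were tested on log2(FPKM + 0.1) with limma 3.58.1 (R 4.3.3; trended variances, no covariate, n = 5 per group). The fold changes are on that scale, which understates the change of low genes. The study's DESeq2 was not run; the main test was chosen to fit the deposited FPKM, and limma voom on the recovered reads was an alternative. Exact permutation tests over all assignments were two-sided and unadjusted. Ligand shares carry no test. No 2 libraries of the same group were copies (chi-square per degree of freedom of 4.78 or more), and p-values measure the spread between these samples. Same-numbered samples correlated in their deviations at -0.0415 to 0.166, so the numbers were not taken as pairs. The fit was tested on simulated data. Tables were made in Python 3.11.15 with pandas 2.3.3.

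The genes named are the 10 members, up to 3 called genes per pathway list and direction, the 5 genes most like each ligand, and marker genes; other uncalled genes of the lists were named after their values were seen. Of the genes chosen, 1 of a pathway list and 1 that overlaps a member are not reported here, and counts leave them out. The members and lists were chosen with earlier results of these data known. Coding sequences came from GENCODE vM39 (GRCm39).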

Additional observations from a re-analysis of the deposited data

Results flagged for a closer look

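Tgfbr3 was 37.6 FPKM in IPF replicate 5, while the other 4 IPF lungs held 20.2 to 24.2 FPKM; the gap to the nearest of them was 0.77 of the group's range, above the critical value of 0.71 for 5 samples. Tgfb2 took 24.0% of the ligand FPKM in sham replicate 5, while the other 4 sham lungs lay at 18.9% to 20.1%, a gap of 0.767 of the range. In all 26 groups of 5 were checked in this way, and chance alone sets about 1 in 20 apart.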

How the results depend on the processing

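The call of Tgfb3 and the sign of its difference held in all 21 alternatives tried (log2 fold change 0.74 to 0.93, adjusted p 0.000388 to 0.0198). The count of members past an adjusted p of 0.05, which was 2, was 1 without a filter on low values, 1 without a variance trend, and 1 to 3 when a lung was left out; with the added limit on the log2 fold change it was 0. With the replicate block the count was also 1, and the pathway lists had 7 genes past the limit; the block also ended the calls of Eln and Junb. The pathway count, which was 8, was 5 without a filter, 5 without a variance trend and 5 with quantile normalization. It was 11 with array weights, 10 at a mean FPKM of at least 1 and 9 with voom. The number called over all genes also moved, from 1196 of 20448 tested in the main fit. It was 908 of 31425 without a filter, 960 without a variance trend and 1192 with quantile normalization. With array weights it was 1749, at a mean FPKM of at least 1 it was 1284 of 13445, and with voom 1481. When a lung was left out, the pathway count was 3 to 11. It was 3 without IPF replicate 4 and 4 without IPF replicate 2, sham replicate 2 or sham replicate 3. It was 5 without IPF replicate 1 or sham replicate 5. Over all genes, 775 to 1620 were called in these fits, fewest without IPF replicate 4 and most without IPF replicate 5. Tgfbr3 passed in 3 of 21 alternatives. The sign changed for Ltbp1 without IPF replicate 3 (-2.22e-05) and for Ltbp3 with array weights (0.0059) and without IPF replicate 5 and sham replicate 1 together (0.0014), a setting chosen after seeing the data. When lungs were left out, Ltbp1 ranged from -2.22e-05 to 0.056 and Ltbp3 from -0.065 to 0.0014. The Tgfb3 share difference, 9.89 percentage points, was 8.43 as shares of reads and 8.42 to 12.2 when a lung was left out. With 597 or more reads per member and sample, counting error was at most 4.09% of a value. None of these alternatives separates sex from the operation.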
